A study of Mus musculus with 6 samples.

Results

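Cholesterol and fatty acid synthesis was followed through 33 genes of the pathway in mouse mammary epithelial cells treated with TGF-β and then released from it. The genes were listed by symbol and fall into a sterol arm of 17 enzymes, a fatty acid arm of 10 enzymes and a set of 6 that holds 5 regulators and a sterol carrier. Array probe sets annotated with 1 gene symbol measured 32 of the 33, among 18193 genes in all, and Acat2 was not analysed here. Where a gene had several probe sets, the one with the highest mean over all 6 arrays was used.

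The cells were NMuMG, an immortalised line of mammary epithelium from a normal mouse, grown in serum with insulin. The withdrawal group was given TGF-β, a cytokine that drives epithelial cells toward a mesenchymal state, at 4 ng/ml over 11 days and then spent 13 days without it. The TGF-β group was given the same dose over 11 days, and the control group was given vehicle. Each group had 2 Affymetrix arrays, and that number limits the precision. The withdrawal cells spent those further days in culture, and the time of the control cells is not stated, so withdrawal and time in culture cannot be told apart. Whether the 2 arrays of a group stem from separate cultures is not stated in the labels. The p-values therefore measure the spread between these arrays alone, and that spread may be technical. All levels below are log2 array values that the authors had normalised with RMA, and differences are log2 differences ± standard error from limma, with p-values adjusted by Benjamini-Hochberg over all 18193 genes. A gene is said to have changed where the adjusted p lay under 0.05.

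The groups were taken from the sample titles, since the free-text descriptions of the 2 treated groups name the opposite cell states. Cdh1, the epithelial cadherin, had 11.80 and 11.79 on the withdrawal arrays, 8.37 and 8.25 on the TGF-β arrays, and 11.99 and 11.89 on the control arrays. Tagln, an actin-binding protein of contractile cells, had 6.97 and 6.82 on the withdrawal arrays, 12.69 and 12.61 on the TGF-β arrays, and 6.89 and 6.92 on the control arrays. Both genes set the TGF-β arrays apart from the other 2 groups. Over probe sets, which are not independent replicates, arrays of a group correlated at 0.998 and arrays of different groups at 0.974 to 0.981. Of the epithelial markers, 5 of 6 lay above the middle of all genes in mean level, and Cldn7 lay below it. Markers of other cell types that lay below the middle were 6 of 7 measured for adipocytes, 7 of 8 for macrophages and leukocytes, 6 of 6 for endothelium and 5 of 6 for fibroblasts. In such bulk samples, fewer cells of a type and less RNA per cell cannot be told apart.

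Cholesterol is built from acetyl-CoA through mevalonate and isoprenoid units to squalene, which is closed into a ring and trimmed to cholesterol. Fatty acids are built from the same acetyl-CoA, then lengthened by elongases and given double bonds by desaturases. Both arms are known targets of the SREBP transcription factors, which are held in the endoplasmic reticulum with their escort Scap by the Insig proteins when sterols are plentiful. SREBP-2, encoded by Srebf2, is known mainly for the sterol genes, and SREBP-1, encoded by Srebf1, mainly for the fatty acid genes. In the mammary gland, lipid synthesis feeds both membranes and milk fat.

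Under TGF-β, 18 of the 32 measured genes fell relative to control and 5 rose. Over all genes, 17.5% fell and 15.0% rose, 32.4% in either direction. On withdrawal, 11 members rose relative to the TGF-β group and 11 fell, where 21.8% and 22.1% of all genes did, 43.9% in either direction. Relative to control, the withdrawal group had 7 members higher and 19 lower, where 21.7% and 23.6% of all genes were, 45.3% in either direction. No measured member lay below percentile 63.87 of all genes in mean level, so the shares of all genes include many dimmer genes. Shares among genes of like level were not tested. In the sterol arm, 10 of 16 measured enzymes fell under TGF-β and 1 rose, 3 rose and 7 fell on withdrawal from it, and 13 stood lower in the withdrawal group than in control with 0 higher. In the fatty acid arm, 4 of 10 rose and 4 fell under TGF-β, 3 rose and 3 fell on withdrawal, and the withdrawal group had 4 higher and 5 lower than control. Of the 6 regulators and carrier, 4 fell and 0 rose under TGF-β, and 5 rose and 1 fell on withdrawal from it, and the withdrawal group had 3 higher and 1 lower than control.

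The sterol arm had a median log2 difference of -0.25 under TGF-β relative to control. Its median was -0.13 on withdrawal relative to TGF-β, and -0.39 on withdrawal relative to control. In the same order, the medians were -0.33, 0.57 and 0.19 for the regulators and carrier, and -0.011, -0.033 and -0.042 over all genes. Some of these counts rest on single arrays. The 18 members that fell under TGF-β became 10 without the first control array, the second control array or the second TGF-β array, and 11 without the first TGF-β array. The 11 that rose on withdrawal from TGF-β became 7 without the second withdrawal array or either TGF-β array. Calls that held whichever array was left out were 4 higher and 9 lower under TGF-β, 7 higher and 9 lower on withdrawal from TGF-β, and 5 higher and 18 lower for withdrawal against control.

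These splits depended on the scaling of the arrays, because RMA sets all arrays to 1 distribution and removes any shift common to all genes. Scaled to added poly-A control RNAs, the median of all genes shifted by -0.30 for TGF-β against control, 0.12 for withdrawal against TGF-β and -0.18 for withdrawal against control. The members were then 2 higher and 21 lower, 7 higher and 5 lower, and 3 higher and 17 lower in these 3 comparisons. Scaled to hybridisation controls, the median of all genes shifted by -0.17, -0.25 and -0.42, and the members were 2 higher and 19 lower, 4 higher and 15 lower, and 3 higher and 25 lower. The directions given below hold relative to the shared distribution of RMA.

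**Figure D1:**
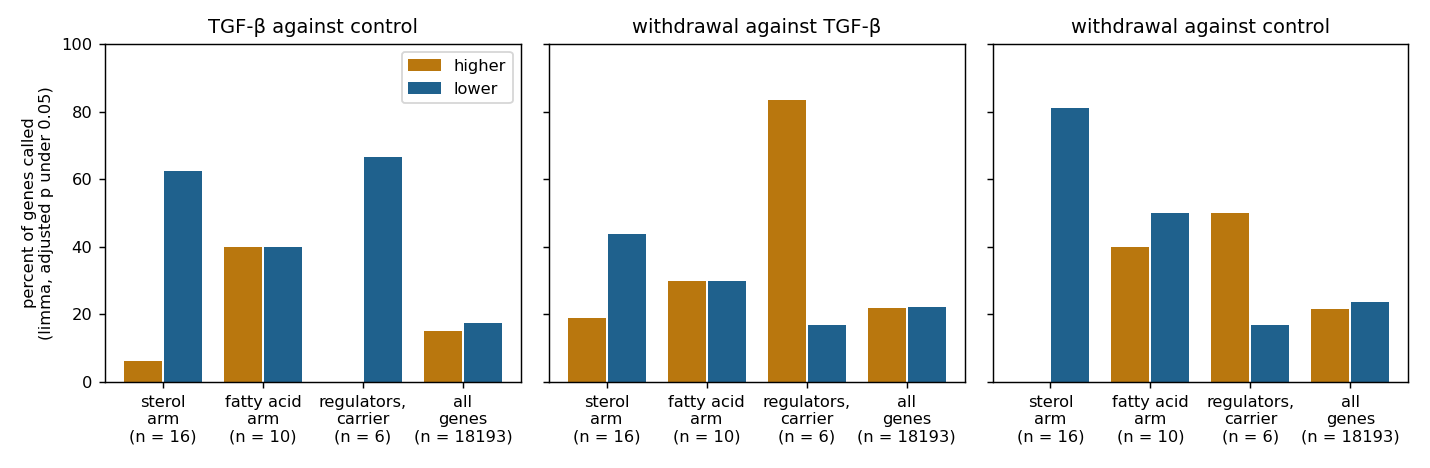
Percent of genes called higher and lower (vertical axis, percent) in each comparison for the sterol arm, the fatty acid arm, the regulators and carrier, and all genes tested. The sterol arm has 62.5% of its 16 genes lower under TGF-β than in control, against 17.5% of all genes, which include genes dimmer than any member.

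**Figure D2:**
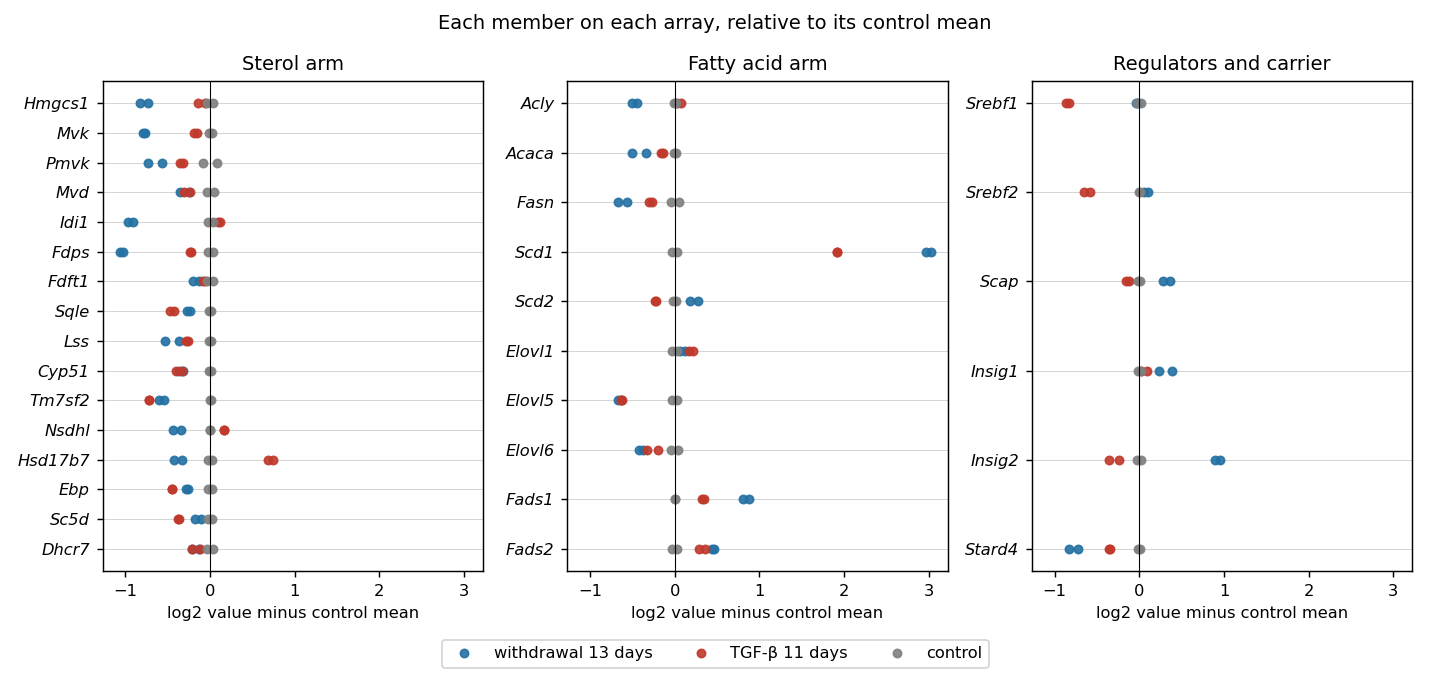
Level of each of the 32 measured members on each of the 6 arrays, as log2 difference from the control mean; points are arrays. Scd1 lies farthest to the right on the withdrawal and TGF-β arrays, and most sterol enzymes lie left of 0.

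The early enzymes of the sterol arm, from acetyl-CoA to farnesyl diphosphate, stood lower in the withdrawal group than in either other group. All 6 measured enzymes were lower than in control, with a median difference of -0.78, and 5 of 6 were lower than in the TGF-β group, with a median of -0.65. Under TGF-β, 4 of 6 fell, by a median over the 6 of -0.20. Over all genes the medians for these 3 comparisons were -0.042, -0.033 and -0.011, and 23.6%, 22.1% and 17.5% of all genes were lower.

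The promoters of 3 of these enzymes and of their regulator Srebf2 are shown because they bear on a sequence element tied to the pathway. Each run is the 250 bases before the annotated start, 5′ to 3′, from the RefSeq table of build GRCm38.p6, on the plus strand, with motif matches in capitals.
Hmgcs1 (chr13:119690101-119690350): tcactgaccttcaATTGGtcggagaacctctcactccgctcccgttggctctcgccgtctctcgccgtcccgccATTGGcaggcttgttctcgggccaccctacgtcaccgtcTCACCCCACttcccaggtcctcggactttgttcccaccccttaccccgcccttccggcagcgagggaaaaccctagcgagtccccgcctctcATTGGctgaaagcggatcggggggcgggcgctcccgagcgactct
Idi1 (chr13:8885356-8885605): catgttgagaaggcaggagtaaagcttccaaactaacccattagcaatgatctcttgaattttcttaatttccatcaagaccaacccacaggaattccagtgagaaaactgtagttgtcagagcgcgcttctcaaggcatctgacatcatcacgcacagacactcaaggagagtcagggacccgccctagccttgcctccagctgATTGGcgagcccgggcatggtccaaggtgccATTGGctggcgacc
Mvk (chr5:114444019-114444268): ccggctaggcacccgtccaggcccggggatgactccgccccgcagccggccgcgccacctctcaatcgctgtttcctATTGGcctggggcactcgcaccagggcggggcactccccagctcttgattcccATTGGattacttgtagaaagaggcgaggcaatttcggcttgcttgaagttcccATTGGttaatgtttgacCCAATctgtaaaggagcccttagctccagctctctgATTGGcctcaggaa
Srebf2 (chr15:82147019-82147268): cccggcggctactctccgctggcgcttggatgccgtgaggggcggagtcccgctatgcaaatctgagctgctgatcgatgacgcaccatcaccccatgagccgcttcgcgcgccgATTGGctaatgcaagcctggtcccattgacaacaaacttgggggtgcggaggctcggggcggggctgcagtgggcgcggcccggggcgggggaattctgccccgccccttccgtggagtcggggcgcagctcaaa
The motifs searched on both strands were the sterol regulatory element as TCACNCCAC, the CCAAT box as CCAAT, and the E-box CACGTG, and none overlapped in these runs. The search among members covered windows of 25 of the 32 measured, 34 windows in all, since 6 members have several. Promoters of the remaining measured members were not searched, so the member counts below do not cover them. TCACNCCAC was found in 1 of these 34 windows, that of Hmgcs1, where it begins 137 bases before the start, and in 1.05% of all 32851 windows. CCAAT was found in 21 of the 34, and in 33.8% of all windows. CACGTG was found in 6 of the 34, and in 6.02% of all windows. In the runs above, the Mvk promoter holds 5 CCAAT matches, Hmgcs1 3, Idi1 2 and Srebf2 1. These matches are descriptions of sequence only.

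Hmgcs1, the enzyme that makes HMG-CoA, had 10.76 and 10.85 on the withdrawal arrays, 11.45 and 11.54 on the TGF-β arrays, and 11.56 and 11.62 on the control arrays. Both withdrawal arrays lay below all others, and the difference was -0.68 ± 0.063 from TGF-β (adjusted p = 0.000303) and -0.78 ± 0.063 from control (adjusted p = 0.000156), 1.72-fold lower. The difference between TGF-β and control was -0.10 ± 0.063 and did not pass (adjusted p = 0.3).

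Idi1, the isomerase that readies isopentenyl diphosphate for condensation, had 9.93 and 9.99 on the withdrawal arrays, 10.99 and 11.02 on the TGF-β arrays, and 10.92 and 10.87 on the control arrays. It stood 2.06-fold lower on withdrawal than under TGF-β, at -1.04 ± 0.054 (adjusted p = 3.24e-05), and -0.94 ± 0.054 relative to control (adjusted p = 4.32e-05). TGF-β and control arrays differed by 0.11 ± 0.054 (adjusted p = 0.195).

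Fdps, which makes farnesyl diphosphate, had 11.08 and 11.12 on the withdrawal arrays, 11.90 and 11.92 on the TGF-β arrays, and 12.11 and 12.17 on the control arrays. The 3 groups did not overlap and fell into steps. Withdrawal against TGF-β gave -0.81 ± 0.052 (adjusted p = 7.46e-05), and withdrawal against control gave -1.05 ± 0.052 (adjusted p = 2.65e-05), 2.06-fold lower. The fall under TGF-β, -0.24 ± 0.052 (adjusted p = 0.0172), was lost without either TGF-β array or either control array (adjusted p up to 0.0999), and with the mean of the probe sets (adjusted p = 0.148).

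Mvk, the mevalonate kinase, had 7.56 and 7.59 on the withdrawal arrays, 8.17 and 8.20 on the TGF-β arrays, and 8.34 and 8.37 on the control arrays. Its withdrawal arrays were the lowest, at -0.61 ± 0.05 from TGF-β (adjusted p = 0.000194) and -0.78 ± 0.05 from control (adjusted p = 6.57e-05). The smaller difference under TGF-β, -0.17 ± 0.05 (adjusted p = 0.045), was lost without any 1 of the 6 arrays (adjusted p up to 0.187).

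Pmvk and Mvd carry mevalonate phosphate on to isopentenyl diphosphate. Pmvk was -0.66 ± 0.083 on withdrawal relative to control (adjusted p = 0.00113). Its differences of -0.32 ± 0.083 from TGF-β and -0.33 ± 0.083 under TGF-β passed, but the first was lost without the first withdrawal array or either TGF-β array (adjusted p up to 0.0987) and the second without either TGF-β array or the second control array (adjusted p up to 0.131). Mvd was -0.27 ± 0.065 under TGF-β (adjusted p = 0.0217) and -0.30 ± 0.065 on withdrawal relative to control (adjusted p = 0.0105). The Mvd call under TGF-β was lost without the second TGF-β array or either control array (adjusted p up to 0.118). The call on withdrawal was lost without the second withdrawal array or the second control array (adjusted p up to 0.065).

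Of the 10 later enzymes, from squalene to cholesterol, 6 fell under TGF-β and 1 rose, with a median of -0.32. On withdrawal from TGF-β, 3 rose and 2 fell, with a median of 0.0076, and 7 stood lower than control, with a median of -0.31. Of all genes, 17.5% fell and 15.0% rose under TGF-β, and 23.6% stood lower than control on withdrawal. The 30% that rose and 20% that fell on withdrawal from TGF-β lay near the 21.8% and 22.1% of all genes. The counts of these 10 enzymes depended on the probe sets. With their mean per gene, 4 fell and 1 rose under TGF-β, 4 fell and 2 rose on withdrawal from it, and 8 stood lower than control.

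Tm7sf2, a sterol Δ14-reductase, had 8.00 and 8.06 on the withdrawal arrays, 7.88 and 7.88 on the TGF-β arrays, and 8.60 and 8.61 on the control arrays. Its fall under TGF-β was -0.72 ± 0.051 (adjusted p = 0.000172), 1.65-fold, and the withdrawal arrays stood -0.57 ± 0.051 from control (adjusted p = 0.000242). The withdrawal arrays differed from the TGF-β arrays by 0.15 ± 0.051, which did not pass (adjusted p = 0.0603).

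Sqle, the squalene epoxidase, had 10.12 and 10.15 on the withdrawal arrays, 9.96 and 9.92 on the TGF-β arrays, and 10.38 and 10.41 on the control arrays. The groups did not overlap, with the TGF-β arrays lowest. Under TGF-β it fell by 0.45 ± 0.05 (adjusted p = 0.00109), and on withdrawal it stood -0.25 ± 0.05 from control (adjusted p = 0.00764). The rise on withdrawal from TGF-β, 0.20 ± 0.05 (adjusted p = 0.022), was lost without the second withdrawal array or either TGF-β array (adjusted p up to 0.104) and turned to -0.021 under hybridisation scaling.

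Ebp, the sterol isomerase, had 11.59 and 11.60 on the withdrawal arrays, 11.41 and 11.42 on the TGF-β arrays, and 11.84 and 11.89 on the control arrays. It showed the same order of groups as Sqle. The fall under TGF-β was -0.45 ± 0.05 (adjusted p = 0.00107), and the withdrawal group stood -0.27 ± 0.05 from control (adjusted p = 0.00573). The rise on withdrawal, 0.18 ± 0.05 (adjusted p = 0.03), was lost without any 1 of the 6 arrays (adjusted p up to 0.104) and turned to -0.038 under hybridisation scaling.

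Hsd17b7, a 3-ketosteroid reductase of the pathway, was the 1 sterol enzyme that rose under TGF-β. It had 8.56 and 8.65 on the withdrawal arrays, 9.72 and 9.66 on the TGF-β arrays, and 8.96 and 9.01 on the control arrays. The TGF-β arrays lay above all others, at 0.71 ± 0.059 from control (adjusted p = 0.000332), 1.63-fold higher. On withdrawal it fell by 1.09 ± 0.059 relative to TGF-β (adjusted p = 4.04e-05), 2.13-fold, and came to lie -0.38 ± 0.059 from control (adjusted p = 0.00279).

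Cyp51, the lanosterol demethylase, fell by 0.37 ± 0.053 under TGF-β (adjusted p = 0.00314) and stood -0.35 ± 0.053 from control on withdrawal (adjusted p = 0.00258). It did not pass on withdrawal from TGF-β, at 0.022 ± 0.053, but with the mean of its probe sets it was -0.22 (adjusted p = 0.0167). Lss, which closes the sterol rings, was -0.45 ± 0.069 relative to control on withdrawal (adjusted p = 0.00252). Its fall under TGF-β, -0.28 ± 0.069 (adjusted p = 0.0267), was lost without either TGF-β array or either control array (adjusted p up to 0.116). The Lss probe set used carries the s suffix that marks probes shared between transcripts. With x, s and a probe sets left out, Lss differed by -0.090 under TGF-β and by -0.0040 on withdrawal relative to control, and neither passed. Nsdhl, a decarboxylating dehydrogenase, fell by 0.56 ± 0.055 on withdrawal relative to TGF-β (adjusted p = 0.000399) and stood -0.39 ± 0.055 from control (adjusted p = 0.00169). Sc5d, a sterol desaturase, fell by 0.38 ± 0.053 under TGF-β (adjusted p = 0.00293), but with the mean of its probe sets the difference was 0.018. Its rise on withdrawal from TGF-β, 0.24 ± 0.053 (adjusted p = 0.0139), was lost without the second withdrawal array or either TGF-β array (adjusted p up to 0.066). Fdft1, the squalene synthase, and Dhcr7, a late sterol reductase, passed in 0 of 3 comparisons on the probe sets used. The Fdft1 probe set used carries the x suffix and gave -0.17 ± 0.055 on withdrawal relative to control (adjusted p = 0.0524). With the mean of its probe sets, Fdft1 was -0.31 relative to control (adjusted p = 0.00338) and -0.23 relative to TGF-β (adjusted p = 0.0122). With x, s and a probe sets left out, it was -0.33 (adjusted p = 0.00443) and -0.25 (adjusted p = 0.0139). Dhcr7 was -0.17 ± 0.063 relative to control (adjusted p = 0.0712), and -0.21 after a further quantile normalisation (adjusted p = 0.035).

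Across the 16 sterol enzymes, 3 fell under TGF-β and again on withdrawal (Mvk, Pmvk and Fdps), and 3 did not pass under TGF-β and fell on withdrawal relative to both other groups (Hmgcs1, Idi1 and Nsdhl). Whether these courses differ in size was not tested. The split between them rests on the threshold. The falls of Mvk, Pmvk and Fdps under TGF-β were lost with single arrays left out, as was the fall of Pmvk on withdrawal from it. A further 4 fell under TGF-β and did not pass on withdrawal from it (Mvd, Lss, Cyp51 and Tm7sf2). On that step, Cyp51 was -0.22 with the mean of probe sets (adjusted p = 0.0167) and Lss -0.21 after quantile normalisation (adjusted p = 0.0345). Tm7sf2 was 0.16 with cyclic loess (adjusted p = 0.0419). Another 2 fell and rose in part (Sqle and Ebp), but both rises were lost without single arrays and turned under hybridisation scaling.

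In the fatty acid arm, the desaturases stood higher in the withdrawal group than in control, and the enzymes that build the chain stood lower. Of 4 desaturases, 3 rose and 1 fell under TGF-β, and all 4 stood higher than control on withdrawal, with a median of 0.65. These counts hold on the probe sets used and with RMA. The calls of Scd2 and Fads2 on withdrawal relative to control were lost under other settings, as given below. Of 3 elongases, 1 rose and 2 fell under TGF-β. Of all genes, 15.0% rose and 17.5% fell under TGF-β, and 21.7% stood higher than control on withdrawal.

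Scd1, the Δ9-desaturase that makes oleate and palmitoleate, had the largest difference of the members in each comparison with control. It had 11.70 and 11.76 on the withdrawal arrays, 10.65 and 10.65 on the TGF-β arrays, and 8.70 and 8.77 on the control arrays. The 3 groups were far apart relative to the spread within each. It was 3.78-fold higher under TGF-β than in control, 1.92 ± 0.053 (adjusted p = 6.24e-06). It was a further 2.11-fold higher on withdrawal, 1.08 ± 0.053 (adjusted p = 2.88e-05), which made it 7.97-fold over control (adjusted p = 2.22e-06). A second Scd1 probe set gave 1.30 under TGF-β, 0.60 on withdrawal relative to TGF-β and 1.90 on withdrawal relative to control.

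Fads1, the Δ5-desaturase of polyunsaturated fatty acids, had 11.40 and 11.46 on the withdrawal arrays, 10.90 and 10.93 on the TGF-β arrays, and 10.59 and 10.59 on the control arrays. It rose at each step, by 0.33 ± 0.052 under TGF-β (adjusted p = 0.00436) and 0.51 ± 0.052 on withdrawal (adjusted p = 0.000453), to 1.79-fold over control (adjusted p = 5.57e-05). Its second probe set gave -0.44 on withdrawal relative to TGF-β (adjusted p = 0.0454 over all probe sets), opposite to the first. Relative to control the second probe set gave -0.28 on withdrawal, which did not pass (adjusted p = 0.167 over all probe sets). With the mean of the probe sets, the TGF-β difference was 0.25 and the withdrawal difference 0.033, and neither passed. On the probe set used, the TGF-β call was lost under poly-A scaling, at 0.041, and under hybridisation scaling, at 0.17. The call on withdrawal from TGF-β was lost under hybridisation scaling, at 0.29 (adjusted p = 0.0521).

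Fads2, the Δ6-desaturase, had 10.39 and 10.41 on the withdrawal arrays, 10.23 and 10.30 on the TGF-β arrays, and 9.98 and 9.92 on the control arrays. The treated arrays lay above control, at 0.32 ± 0.055 for TGF-β (adjusted p = 0.00656) and 0.45 ± 0.055 for withdrawal (adjusted p = 0.00096). Both calls were lost under poly-A scaling, at 0.031 and 0.31, and under hybridisation scaling, at 0.16 and 0.075. Withdrawal and TGF-β differed by 0.13 ± 0.055, which did not pass (adjusted p = 0.108).

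Scd2, a second Δ9-desaturase and close relative of Scd1, had 13.93 and 13.84 on the withdrawal arrays, 13.42 and 13.44 on the TGF-β arrays, and 13.68 and 13.64 on the control arrays. On this probe set it fell by 0.23 ± 0.056 under TGF-β (adjusted p = 0.0243), a call lost without either TGF-β array or either control array (adjusted p up to 0.121). It rose by 0.46 ± 0.056 on withdrawal from TGF-β (adjusted p = 0.000992). Relative to control the withdrawal group was 0.23 ± 0.056 (adjusted p = 0.0177), a call lost without the first withdrawal array or either control array (adjusted p up to 0.0923).
The probe sets of Scd2 disagreed on TGF-β. A second gave -0.34 under TGF-β, and the third gave 0.72 (adjusted p = 0.00789 over all probe sets). The third had 12.14 and 12.36 on the withdrawal arrays, 11.28 and 11.31 on the TGF-β arrays, and 10.74 and 10.41 on the control arrays, with no overlap between groups. Cross-hybridisation between Scd1 and Scd2 probes was not tested.

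**Figure D3:**
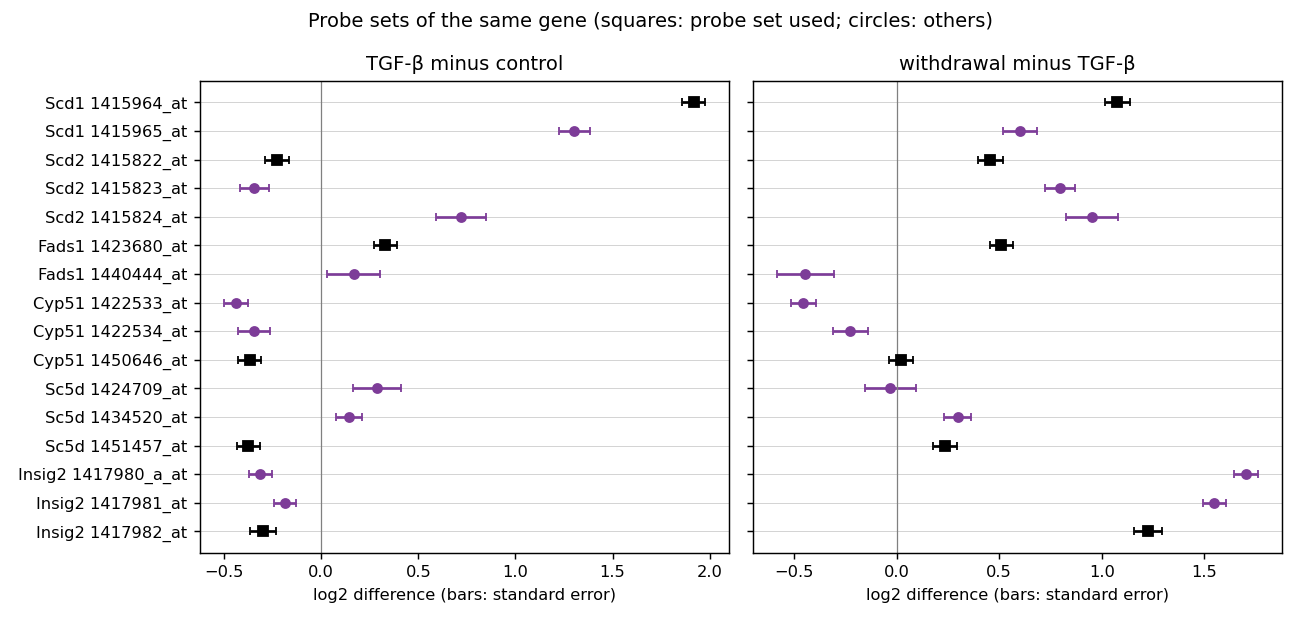
Log2 difference ± standard error by probe set for Scd1, Scd2, Fads1, Cyp51, Sc5d and Insig2, for TGF-β minus control (left) and withdrawal minus TGF-β (right); squares are the probe sets used. The Scd2 probe sets lie on both sides of 0 for TGF-β against control, and all Insig2 probe sets lie above 0 for withdrawal against TGF-β.

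Elovl5, an elongase of polyunsaturated chains, had 10.98 and 11.01 on the withdrawal arrays, 11.03 and 11.01 on the TGF-β arrays, and 11.67 and 11.62 on the control arrays. It fell by 0.63 ± 0.051 under TGF-β (adjusted p = 0.000285) and stood -0.65 ± 0.051 from control on withdrawal (adjusted p = 0.000138), with overlapping withdrawal and TGF-β arrays. Elovl6, which lengthens palmitate, stood -0.40 ± 0.068 from control on withdrawal (adjusted p = 0.00396). Its fall under TGF-β, -0.26 ± 0.068 (adjusted p = 0.0312), was lost without either withdrawal array, the second TGF-β array or either control array (adjusted p up to 0.155). Elovl1, an elongase of very long chains, was 0.19 ± 0.054 under TGF-β (adjusted p = 0.0408), a call lost without any 1 of the 6 arrays (adjusted p up to 0.184), and it was -0.097 under poly-A scaling.

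The enzymes that build the chain were lower in the withdrawal group. Fasn, the fatty acid synthase, had 10.12 and 10.23 on the withdrawal arrays, 10.52 and 10.49 on the TGF-β arrays, and 10.84 and 10.75 on the control arrays. The withdrawal arrays were lowest, -0.62 ± 0.063 from control (adjusted p = 0.00042), 1.54-fold, and -0.33 ± 0.063 from TGF-β (adjusted p = 0.00687). The fall under TGF-β, -0.29 ± 0.063 (adjusted p = 0.0153), was lost without either TGF-β array or the first control array (adjusted p up to 0.0901). Acaca, the acetyl-CoA carboxylase that makes malonyl-CoA, was -0.42 ± 0.07 from control on withdrawal (adjusted p = 0.00361). It differed by -0.27 ± 0.07 from TGF-β (adjusted p = 0.0228), a call lost without the first withdrawal array or either TGF-β array (adjusted p up to 0.0905) or with the mean of the probe sets (adjusted p = 0.143).

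Acly, which splits citrate into acetyl-CoA for both arms, had 10.50 and 10.56 on the withdrawal arrays, 11.07 and 11.03 on the TGF-β arrays, and 11.02 and 10.99 on the control arrays. The withdrawal arrays lay -0.52 ± 0.052 from TGF-β (adjusted p = 0.000434) and -0.47 ± 0.052 from control (adjusted p = 0.000606). That probe set carries the x suffix of probes that may match other transcripts. Among its brighter probe sets without that suffix, one gave -0.14 and -0.068 for these differences, and neither passed. Another gave -0.26 from TGF-β (adjusted p = 0.0291 over all probe sets) and -0.23 from control (adjusted p = 0.0438), and both passed. With the mean of the probe sets, the difference from control was -0.16 and did not pass (adjusted p = 0.0773).

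Among the regulators, both SREBP genes and Insig2 fell under TGF-β, and all 5 genes other than the carrier Stard4 rose on withdrawal from it. Srebf1, encoding SREBP-1, had 10.13 and 10.10 on the withdrawal arrays, 9.28 and 9.31 on the TGF-β arrays, and 10.16 and 10.12 on the control arrays. Under TGF-β it fell by 0.85 ± 0.05 (adjusted p = 8.82e-05), 1.8-fold, and on withdrawal it rose by 0.82 ± 0.05 (adjusted p = 6.14e-05). The withdrawal and control arrays overlapped, with a difference of -0.026 ± 0.05 (adjusted p = 0.717). Under hybridisation scaling that difference was -0.40 and passed (adjusted p = 0.00423).

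Srebf2, encoding SREBP-2, had 9.35 and 9.40 on the withdrawal arrays, 8.72 and 8.65 on the TGF-β arrays, and 9.29 and 9.30 on the control arrays. It fell by 0.62 ± 0.054 under TGF-β (adjusted p = 0.000392) and rose by 0.69 ± 0.054 on withdrawal (adjusted p = 0.00015). Relative to control the withdrawal group differed by 0.076 ± 0.054, which did not pass (adjusted p = 0.31). That difference went both ways with the processing. It was 0.23 with the mean of the probe sets (adjusted p = 0.00938) and 0.38 on the second probe set (adjusted p = 0.00394 over all probe sets), and -0.30 under hybridisation scaling.

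Insig2, an anchor that holds Scap and SREBP in the endoplasmic reticulum, had 10.42 and 10.37 on the withdrawal arrays, 9.11 and 9.23 on the TGF-β arrays, and 9.44 and 9.49 on the control arrays. The withdrawal arrays lay above all others, at 2.34-fold over TGF-β, 1.23 ± 0.063 (adjusted p = 3.25e-05), and 1.9-fold over control, 0.93 ± 0.063 (adjusted p = 8.16e-05). Its other probe sets gave 1.71 and 1.55 against TGF-β. The fall under TGF-β, -0.30 ± 0.063 (adjusted p = 0.014), was lost without the first TGF-β array or either control array (adjusted p up to 0.0821).

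Insig1, the second such anchor, had 9.35 and 9.51 on the withdrawal arrays, 9.21 and 9.14 on the TGF-β arrays, and 9.14 and 9.10 on the control arrays. It rose on withdrawal by 0.25 ± 0.07 from TGF-β (adjusted p = 0.0299) and 0.31 ± 0.07 from control (adjusted p = 0.0138), but the first call was lost without the second withdrawal array, either TGF-β array or either control array (adjusted p up to 0.128). The second was lost without the second withdrawal array or either control array (adjusted p up to 0.0737). TGF-β and control differed by 0.055 ± 0.07 (adjusted p = 0.624).

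Scap, the escort of SREBP, had 10.00 and 10.08 on the withdrawal arrays, 9.56 and 9.60 on the TGF-β arrays, and 9.74 and 9.71 on the control arrays. The withdrawal arrays were highest, at 0.46 ± 0.054 from TGF-β (adjusted p = 0.000888) and 0.32 ± 0.054 from control (adjusted p = 0.00417), though the difference from control was -0.060 under hybridisation scaling. With the mean of the Scap probe sets neither passed, at 0.13 from TGF-β (adjusted p = 0.218) and 0.083 from control (adjusted p = 0.435). Stard4, a sterol carrier between membranes, had 9.20 and 9.10 on the withdrawal arrays, 9.57 and 9.58 on the TGF-β arrays, and 9.91 and 9.94 on the control arrays. It fell at each step, by 0.35 ± 0.056 under TGF-β (adjusted p = 0.00473) and 0.43 ± 0.056 on withdrawal (adjusted p = 0.00137), to -0.78 ± 0.056 from control (adjusted p = 0.000103). Another Stard4 probe set gave -0.040 under TGF-β, which did not pass (adjusted p = 0.727 over all probe sets).

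**Figure D4:**
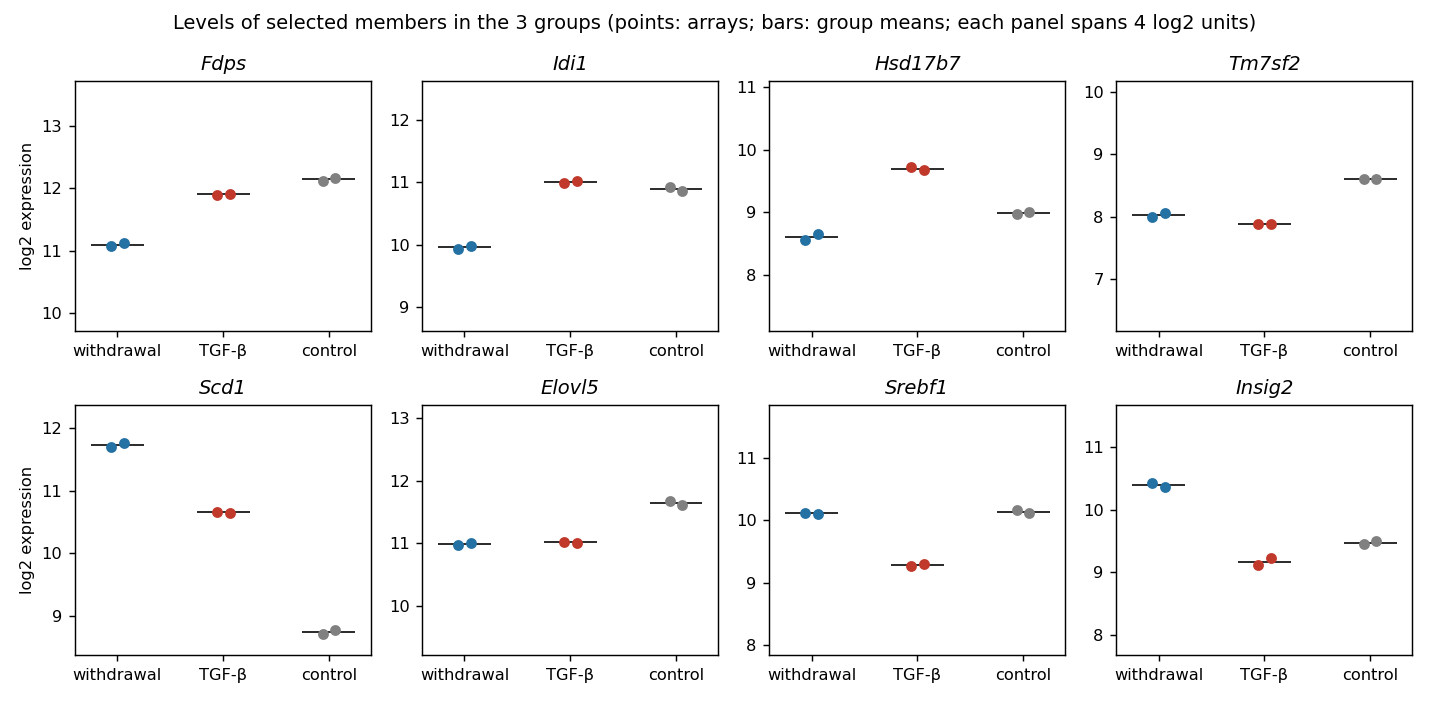
Log2 level of 8 members on the 2 arrays of each group (points), with group means as bars, in the order withdrawal, TGF-β, control. Each panel spans 4 log2 units; Idi1 and Fdps are lowest on withdrawal, Scd1 is highest there, and Srebf1 is lowest under TGF-β.

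The arms were also set against each other by their medians. The sterol median minus the fatty acid median was -0.20 for TGF-β against control, -0.072 for withdrawal against TGF-β and -0.23 for withdrawal against control, where the SD of that difference between replicate arrays was 0.027. That SD does not cover the spread between genes, and the value has no test, since the genes were chosen with earlier results known. It rests in part on single genes and probe sets. Leaving out Acly, which feeds both arms, gave -0.10, -0.11 and -0.48, and leaving out x, s and a probe sets gave -0.072 under TGF-β. The fatty acid median itself was closer to 0 than the sterol median in each comparison, at -0.051, -0.062 and -0.16, with rises and falls side by side. For withdrawal against TGF-β, 2 settings gave a fatty acid median farther from 0 than the sterol median. With x, s and a probe sets left out they were 0.037 and -0.030, and under poly-A scaling 0.087 and 0.015. The 3 comparisons share arrays and are not independent of each other.

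Genes around the pathway were described from lists of their own, chosen with earlier results known. Their counts are to be read against all genes, of which 15.0% rose and 17.5% fell under TGF-β, 21.8% rose and 22.1% fell on withdrawal from it, and 21.7% were higher and 23.6% lower than control on withdrawal. Sterol uptake and trafficking had 4 of 9 genes higher and 1 lower under TGF-β, 7 higher and 1 lower on withdrawal from TGF-β, and 7 higher and 2 lower on withdrawal relative to control. Lrp1, an endocytic receptor of lipoproteins, had 10.73 and 10.72 on the withdrawal arrays, 9.66 and 9.55 on the TGF-β arrays, and 7.73 and 7.79 on the control arrays, and rose 1.85 ± 0.059 under TGF-β (adjusted p = 9.02e-06) and 1.12 ± 0.059 on withdrawal (adjusted p = 3.57e-05). Lipa, the lysosomal lipase that frees cholesterol from its esters, had 10.88 and 10.91 on the withdrawal arrays, 9.32 and 9.39 on the TGF-β arrays, and 9.59 and 9.50 on the control arrays, and rose 1.54 ± 0.058 on withdrawal from TGF-β (adjusted p = 1.33e-05). Scarb1, the receptor for HDL, had 7.18 and 7.35 on the withdrawal arrays, 8.79 and 8.90 on the TGF-β arrays, and 8.73 and 8.72 on the control arrays, and fell by 1.58 ± 0.076 on withdrawal from TGF-β (adjusted p = 2.59e-05). Gramd1b, a carrier of sterol into the endoplasmic reticulum, fell by 1.22 ± 0.068 under TGF-β (adjusted p = 6.68e-05), and Gramd1a rose by 0.61 ± 0.11 (adjusted p = 0.00706).

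Of 6 genes of sterol efflux and LXR, the sterol-sensing nuclear receptor, 1 rose and 3 fell under TGF-β, and 3 rose and 1 fell on withdrawal from TGF-β. Of all genes, 15.0% rose and 17.5% fell under TGF-β, and 21.8% rose and 22.1% fell on withdrawal. Abca1, the exporter of cholesterol to apolipoproteins, had 10.94 and 10.83 on the withdrawal arrays, 4.93 and 4.72 on the TGF-β arrays, and 5.05 and 5.01 on the control arrays. The log2 difference between the withdrawal and control arrays was 5.86 ± 0.086 (adjusted p = 2.22e-06), while TGF-β and control differed by -0.20 ± 0.086 (adjusted p = 0.134). The TGF-β and control levels are not separated from background, so no fold is given. Nr1h3, which encodes LXRα, fell by 0.48 ± 0.068 under TGF-β (adjusted p = 0.00293) and rose by 1.24 ± 0.068 on withdrawal (adjusted p = 4.12e-05). Lpcat3, a phospholipid acyltransferase, fell by 0.69 ± 0.057 and rose by 1.22 ± 0.057 in the same comparisons (adjusted p = 0.000311 and 2.43e-05).

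Of 8 genes that process or turn over SREBP, 3 rose and 2 fell under TGF-β, 5 rose and 2 fell on withdrawal from TGF-β, and 6 stood higher than control on withdrawal with 0 lower. Mbtps1, the site-1 protease that first cuts SREBP, rose by 1.04 ± 0.067 on withdrawal from TGF-β (adjusted p = 7.3e-05). Mbtps2, the site-2 protease, fell by 0.48 ± 0.057 under TGF-β (adjusted p = 0.00139). Erlin2, a membrane protein tied to the turnover of endoplasmic reticulum proteins, rose by 0.89 ± 0.062 on withdrawal (adjusted p = 0.000101). Sec24d, a coat protein of transport vesicles, rose by 2.00 ± 0.059 under TGF-β (adjusted p = 7.2e-06) and fell by 1.21 ± 0.059 on withdrawal (adjusted p = 2.78e-05).

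Of 20 partners in fatty acid supply, activation and elongation, 4 rose and 8 fell under TGF-β, 8 rose and 4 fell on withdrawal from TGF-β, and 2 stood higher and 9 lower than control on withdrawal. The 20.0% that rose under TGF-β and the 20.0% that fell on withdrawal from it lay near the 15.0% and 22.1% of all genes. Me1, the malic enzyme that yields NADPH for synthesis, had 10.50 and 10.54 on the withdrawal arrays, 9.29 and 9.24 on the TGF-β arrays, and 11.11 and 11.09 on the control arrays, and fell by 1.84 ± 0.051 under TGF-β (adjusted p = 6.24e-06) and rose by 1.26 ± 0.051 on withdrawal (adjusted p = 1.58e-05). Elovl7, an elongase of saturated chains, fell by 1.52 ± 0.054 under TGF-β (adjusted p = 1.23e-05). Acss2, which makes acetyl-CoA from acetate, rose by 1.03 ± 0.12 on withdrawal from TGF-β (adjusted p = 0.000861). Of 5 other genes of sterol and isoprenoid synthesis, 1 rose and 2 fell under TGF-β, and 1 rose and 3 fell on withdrawal from TGF-β. Ggps1, which makes geranylgeranyl diphosphate, rose by 0.38 ± 0.071 under TGF-β (adjusted p = 0.00826) and fell by 0.38 ± 0.071 on withdrawal (adjusted p = 0.00595). Msmo1, a sterol C4-methyl oxidase, fell by 0.46 ± 0.052 on withdrawal relative to control (adjusted p = 0.000684), but with x, s and a probe sets left out it was 0.14.

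**Figure D5:**
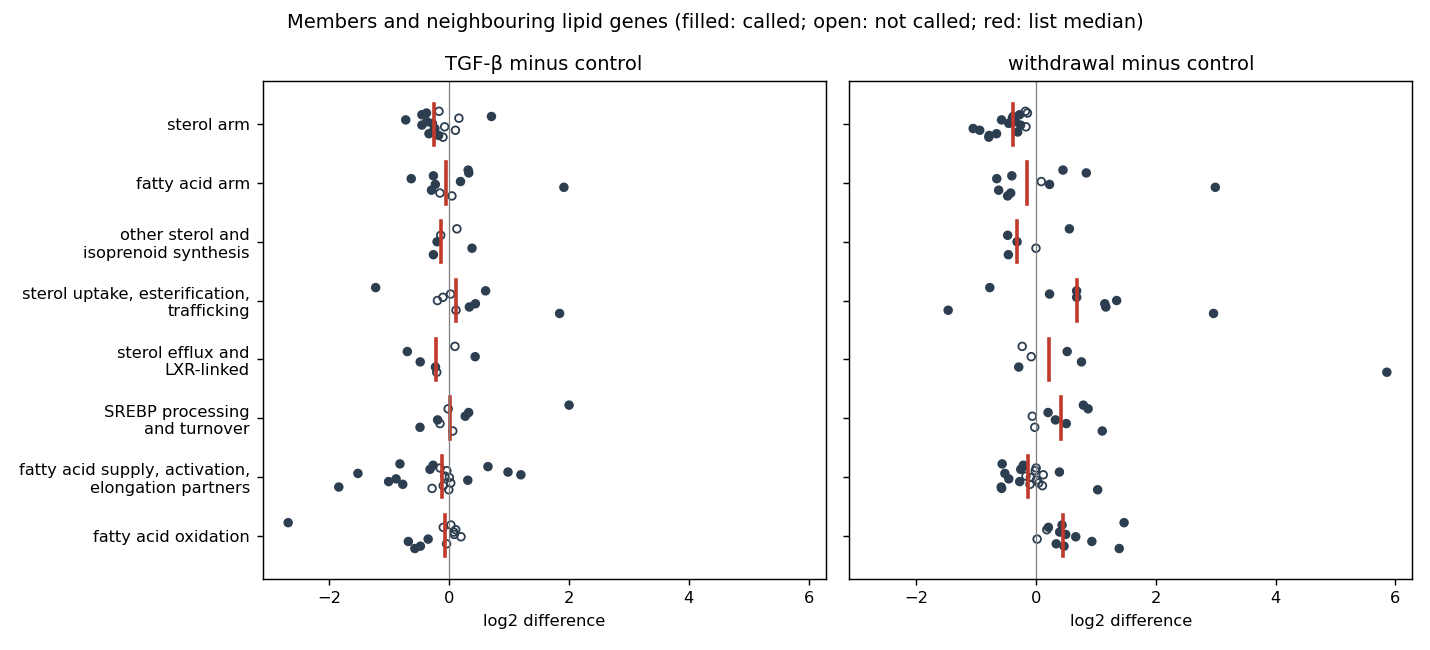
Log2 difference of each gene (points, filled where called) in the 2 enzyme arms and 6 lists around them, for TGF-β minus control (left) and withdrawal minus control (right), with list medians in red. Abca1, of the efflux list, is the point farthest right, at 5.86 for withdrawal minus control.

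Adipocyte markers were read beside these results because adipocytes make fatty acids. Their summed level was 9.06 and 9.14 on the withdrawal arrays, 8.40 and 8.41 on the TGF-β arrays, and 8.95 and 9.03 on the control arrays, in log2 units. Of the 7 measured, only Pparg lay above the middle of all genes, and it fell by 1.17 ± 0.061 under TGF-β (adjusted p = 5.49e-05) and rose by 1.26 ± 0.061 on withdrawal (adjusted p = 2.78e-05). Lipe, the hormone-sensitive lipase, lay below the middle and rose on withdrawal by 0.75 ± 0.081 from TGF-β (adjusted p = 0.000619) and 0.66 ± 0.081 from control (adjusted p = 0.000979). Adipoq, a defining adipocyte marker, had 3.69 and 3.96 on the withdrawal arrays, 4.01 and 4.02 on the TGF-β arrays, and 3.77 and 3.77 on the control arrays. Both TGF-β arrays lay above the others, and the difference of 0.25 ± 0.092 from control did not pass (adjusted p = 0.0928). Macrophage and leukocyte markers summed to 11.65 and 11.70 on the withdrawal arrays, 10.16 and 10.12 on the TGF-β arrays, and 11.40 and 11.42 on the control arrays, with Cd14 the 1 member above the middle of all genes. Fibroblast markers summed to 8.10 and 8.08 on the withdrawal arrays, 9.94 and 10.14 on the TGF-β arrays, and 7.90 and 7.85 on the control arrays. Among them, Col1a1 was the 1 member above the middle of all genes. Epithelial markers summed to 14.79 and 14.79 on the withdrawal arrays, 14.69 and 14.71 on the TGF-β arrays, and 15.45 and 15.45 on the control arrays. Krt8 and Krt18, the brightest of them, fell by 0.73 and 0.53 under TGF-β and did not rise on withdrawal. On withdrawal from TGF-β, Krt8 fell further, by 0.22 (adjusted p = 0.0141), and Krt18 differed by -0.0018, which did not pass. Cdh1 and Ocln fell by 3.63 and 3.29 under TGF-β and rose on withdrawal by 3.49 and 2.93, which the sum does not show. Epcam and Cldn7 did not pass under TGF-β, and Epcam fell by 0.27 on withdrawal from it. The part of these marker levels in the results was not tested.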

How the data were processed

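Total RNA of 6 NMuMG samples was labelled with a 3′ IVT kit, whose signal comes largely from transcript 3′ ends, and hybridised to 1-colour Affymetrix mouse arrays, per the labels' protocols. The deposited table gives a log2 value for each probe set. Per the submitters' processing notes the authors used RMA, a method that corrects background, sets all arrays to 1 distribution and summarises probes. Which version was run, and on which arrays jointly, is not given in the sources used here. No detection calls were used, so low values are not separated from background. Array medians were 5.77 to 5.79.

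The 45101 probe sets include 64 controls, which were left out of gene comparisons. The 34945 with 1 annotated symbol gave 18193 genes, each taken from its probe set of highest mean over the 6 arrays. limma 3.58.1 in R 4.3.3 fitted 1 model over the 3 groups of 2 arrays, with no covariates, 3 residual and 2.857 prior degrees of freedom, two-sided tests and Benjamini-Hochberg adjustment at 0.05. It was tested on simulated data. Tables and figures used Python 3.11.15, pandas 2.3.3 and matplotlib 3.10.9. Standard errors of log2 differences had a median of 0.0701.

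The members and all gene lists were chosen with earlier results of these data known. All members may be named. Values on every array are given for the 4 sterol and 4 fatty acid enzymes with the largest called difference per comparison, the regulators and carriers, and members whose probe sets were called in opposite directions. From each list around the pathway, at most 3 called genes per comparison are named. Probe sets were refitted one by one over all 34945. Alternatives were the mean of probe sets, leaving out x, s and a probe sets, the dimmest 40% of genes left out, quantile and cyclic loess normalisation, scaling to 24 poly-A or 18 hybridisation control probe sets, an intensity trend, only the groups compared, the replicate number as a block, each array left out, and Acly left out of its arm. Replicate numbers are not said to pair cultures, and deviations of same-numbered arrays correlated at -0.0038, -0.016 and 0.0067, so they were not treated as pairs.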

Additional observations from a re-analysis of the deposited data

How the results depend on the processing

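Of 1527 values of single members under the alternatives, 1348 kept their side of the threshold, 122 lost a call, 46 gained one and 11 turned. A value was counted as turned where its sign changed and it was called in the main fit or the alternative. Values called in neither were counted as kept, also where their sign changed. The causes were not tested. Lost calls numbered 18 under poly-A scaling, 9 under hybridisation scaling, 9 with the mean of probe sets, 5 with x, s and a probe sets left out, 5 with only the groups compared, 2 each with quantile normalisation and the replicate block, and 7 to 15 for each array left out. Gained calls numbered 12 with an intensity trend, 9 with the dimmest genes left out, 9 under hybridisation scaling, 4 each with cyclic loess and the mean of probe sets, 3 under poly-A scaling, 2 each with quantile normalisation and with x, s and a probe sets left out, and 1 without the second withdrawal array. The values that turned and the counts that moved follow, with the calls lost under the replicate block. Scaling to poly-A controls gave 2 members higher for TGF-β against control, 7 higher and 5 lower for withdrawal against TGF-β, and 3 higher for withdrawal against control. Over all genes it gave 818 higher and 5334 lower under TGF-β, 1500 lower on withdrawal from TGF-β and 1967 higher against control, where the main counts were 2726, 3175, 4023 and 3943. Hybridisation scaling gave 2, 4 and 3 members higher in the 3 comparisons, and 1319, 2146 and 1655 of all genes higher, with 7772 lower on withdrawal from TGF-β and 12634 lower than control. The poly-A controls themselves differed within the control group, at 8.68 and 8.38. Leaving out 1 array gave 10 to 16 members lower and 4 higher under TGF-β, 7 to 10 higher and 9 to 12 lower on withdrawal from TGF-β, and 5 to 7 higher and 18 to 19 lower for withdrawal against control. The arm difference without 1 array was -0.23 to -0.17, -0.11 to -0.044 and -0.25 to -0.23. It was -0.072 under TGF-β and -0.28 for withdrawal against control with x, s and a probe sets left out, and -0.10, -0.11 and -0.48 without Acly. For withdrawal against TGF-β it was -0.19 with the mean of probe sets, -0.11 with quantile normalisation and -0.10 with cyclic loess, and for withdrawal against control -0.33 with the mean of probe sets. With the replicate block, members were 5 higher and 17 lower, 10 higher and 11 lower, and 7 higher and 19 lower, with Mvk lost under TGF-β (adjusted p = 0.0659) and Insig1 lost on withdrawal from TGF-β (adjusted p = 0.0538).

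Single values that turned were, with the mean of probe sets, Sc5d 0.018, Scd2 0.049 and Dhdds 0.035 under TGF-β, Cyp51 -0.22 on withdrawal from TGF-β and Dhdds 0.014 on withdrawal against control. With x, s and a probe sets left out, Msmo1 was 0.21 and Dhdds 0.22 under TGF-β, Cyb5r3 -0.19 on withdrawal from TGF-β, and Msmo1 0.14, Dhdds 0.25 and Cyb5r3 -0.11 against control. Poly-A scaling turned Elovl1 to -0.097 under TGF-β. Hybridisation scaling turned Sqle to -0.021 and Ebp to -0.038 on withdrawal from TGF-β, and Scd2 to -0.15, Elovl1 -0.29, Srebf2 -0.30, Scap -0.060, Insig1 -0.070, Ggps1 -0.38 and Erlin1 -0.17 against control.

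List medians that turned were, under TGF-β, the fatty acid arm at 0.060 (mean of probe sets), other sterol synthesis at 0.035 (mean of probe sets) and 0.22 (x, s and a probe sets left out), uptake at -0.17 (poly-A) and -0.042 (hybridisation), and SREBP processing at -0.046 (mean of probe sets), -0.26 (poly-A), -0.13 (hybridisation) and, with single arrays left out, from -0.018 (without the first control array) to 0.068 (without the second). On withdrawal from TGF-β they were the sterol arm at 0.015 (poly-A), the fatty acid arm at 0.037 (x, s and a probe sets left out), 0.0084 (cyclic loess) and 0.087 (poly-A), and fatty acid partners at -0.16 (hybridisation). Against control they were the regulators at -0.19 and the efflux list at -0.15 (hybridisation), and other sterol synthesis at 0.014 (mean of probe sets) and 0.072 (x, s and a probe sets left out).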

Other observations

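Genes of fatty acid oxidation, the breakdown of the chains that the fatty acid arm builds, were counted higher on withdrawal. Of 12 measured genes, 10 were higher and 0 lower than in the TGF-β group, with a median of 0.41, where 21.8% of all genes were higher and 22.1% lower. Relative to control, 10 were higher and 0 lower, with a median of 0.45, where 21.7% and 23.6% of all genes were. Under TGF-β, 0 rose and 5 fell, where 15.0% and 17.5% of all genes did. The list was chosen with earlier results of these data known. Ppargc1a, a coactivator known for mitochondrial metabolism, had 8.86 and 8.85 on the withdrawal arrays, 4.81 and 4.58 on the TGF-β arrays, and 7.46 and 7.31 on the control arrays. It fell by 2.68 ± 0.093 under TGF-β (adjusted p = 1.13e-05) and rose by 4.16 ± 0.093 on withdrawal (adjusted p = 3.31e-06), with TGF-β levels that are not separated from background. Cpt1a, which admits fatty acids to mitochondria, had 11.14 and 11.27 on the withdrawal arrays, 9.22 and 9.27 on the TGF-β arrays, and 9.83 and 9.80 on the control arrays, and rose by 1.96 ± 0.062 on withdrawal (adjusted p = 7.76e-06). Acadm, the medium-chain acyl-CoA dehydrogenase, had 11.68 and 11.53 on the withdrawal arrays, 10.00 and 9.99 on the TGF-β arrays, and 10.66 and 10.68 on the control arrays, and rose by 1.61 ± 0.065 on withdrawal (adjusted p = 1.52e-05).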
